A study of Mus musculus with 31 samples.

Results

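Prkcd, Gabrd and Tcf7l2 are genes with high transcript levels in thalamic neurons, and they were read here as a gauge of how much thalamic signal each dissected sample held. They were the 3 genes chosen among 8973 named genes tested, and their probes were found by the gene names listed for the array. They were chosen by their measured signals on these same arrays, namely the difference between XXY and XY males and the shared variation of Prkcd and Gabrd, so both are given as descriptions with no test. All 3 genes passed the filter on dim probes, through 5 probes.

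The tissue was the bed nucleus of the stria terminalis and preoptic area (BNST/POA) of adult MF1 mice aged 152 days, from a mouse model of Klinefelter syndrome called the Sex Chromosome Trisomy model. The study asked whether a feminized partner preference in this model has a counterpart in gene expression. There were 8 arrays of XX females, 7 of XX males, 8 of XXY males and 8 of XY males, and the array labels mark the testis-determining gene Sry in all 3 male groups and not in the females. No other treatment is given in the labels. Each array is called a biological replicate there, but the labels do not tie it to a separate animal, and a p-value here reflects how far these samples scatter, which may be technical. The descriptions assign 20 arrays to batch 1, with 5 of each group, and 11 to batch 2, with 2 XX males and 3 of each other group. Of 25697 probes, between 12939 and 14397 were detected on an array. The X-inactivation transcript Xist was detected on 8 of 8 XX female, 7 of 7 XX male and 8 of 8 XXY male arrays and on 0 of 8 XY male arrays. XX male 6 is labelled batch 1 but lay with batch 2 on the leading principal component, at 33.4, where the lowest batch 2 array was at 22.8 and the highest other batch 1 array at -12.7.

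Prkcd encodes protein kinase C delta, a diacylglycerol-dependent kinase that does not need calcium. Gabrd encodes the delta subunit of the GABA-A receptor, which takes part in receptors outside the synapse that carry tonic inhibition. Tcf7l2 encodes a transcription factor of the TCF/LEF family, which acts with beta-catenin in Wnt signalling and regulates the identity of thalamic neurons. None of them marks the thalamus alone. Prkcd is also a marker of neurons of the oval BNST and the central amygdala, Gabrd is abundant in dentate granule cells and is found in the striatum, and Tcf7l2 is expressed in the oligodendrocyte lineage. The thalamus lies next to the tissue named in the labels and is not part of it.

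The promoter windows are shown because Tcf7l2 binds a known core sequence. A part of Tcf7l2 in the shared variation of the members was not tested. RefSeq promoter windows of 300 bases (250 before and 50 after a transcript start, build GRCm38.p6) were available for Prkcd and Tcf7l2 and not for Gabrd. They were searched on both strands for the TCF/LEF core letters CTTTGAT and CTTTGTT, whose reverse complements are ATCAAAG and AACAAAG. Of the 2 Prkcd windows, 1 held a match, a reverse-strand AACAAAG at offset -242 from the start (0 is the start itself). Of the 2 Tcf7l2 windows, 1 held a match, CTTTGTT at offset -14. Both are printed 5′ to 3′ on the gene's strand, with the matched letters in capitals, for chr14:30610261-30610560 (minus strand) and chr19:55895071-55895370 (plus strand).
Prkcd: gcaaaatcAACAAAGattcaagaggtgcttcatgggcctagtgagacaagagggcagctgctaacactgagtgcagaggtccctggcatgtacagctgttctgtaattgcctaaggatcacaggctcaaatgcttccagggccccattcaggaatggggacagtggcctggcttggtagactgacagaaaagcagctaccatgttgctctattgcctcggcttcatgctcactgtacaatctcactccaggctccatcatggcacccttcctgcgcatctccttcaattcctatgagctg
Tcf7l2: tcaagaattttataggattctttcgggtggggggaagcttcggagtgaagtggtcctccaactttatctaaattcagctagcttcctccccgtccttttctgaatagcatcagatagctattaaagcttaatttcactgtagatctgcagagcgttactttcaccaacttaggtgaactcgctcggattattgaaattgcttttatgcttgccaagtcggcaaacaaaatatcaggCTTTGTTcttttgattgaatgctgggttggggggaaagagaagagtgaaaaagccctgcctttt
The other windows, chr14:30626159-30626458 for Prkcd and chr19:55741560-55741859 for Tcf7l2, held neither core. They cover the outer start of each gene, and the windows with a match lie inside the gene. Of 32851 windows of this length, 5.85% held CTTTGTT or its reverse, 3.73% held CTTTGAT or its reverse, and 9.33% held either. A match describes letters and does not show that a factor binds there.

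Prkcd was read by probe ILMN_1245750, and the gene lies at chr14:30595353-30626414 of GRCm38.p6. It was detected on 31 of 31 arrays. Its normalized log2 signal ran from 7.98 on XXY male 2 to 11.45 on XY male 5 with a median of 9.97, an 11.1-fold range. On a single array the bead standard error was 2.65% to 5.56% of the intensity, which covers the spread between beads and not labelling, hybridisation or normalization.

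Among XX females Prkcd was lowest at 8.19, had a median of 10.49 and was highest at 11.27. The XX males gave 8.32, 9.71 and 11.24 in the same order, and the XXY males 7.98, 9.37 and 11.12. In XY males the lowest, median and highest were 8.06, 10.44 and 11.45. Every group held arrays near the bottom and near the top of the range, and the 4 groups overlapped over almost all of it. Group means were 10.17 ± 1.07 (SD, n = 8) in XX females, 9.78 ± 1.15 (SD, n = 7) in XX males, 9.33 ± 1.10 (SD, n = 8) in XXY males and 10.08 ± 1.37 (SD, n = 8) in XY males. The order from highest mean was XX female, XY male, XX male and XXY male, and each neighbour in that order differed by less than 1 SD of either group.

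Gabrd, at chr4:155384979-155398098, was read by probes ILMN_2865082, which represents the gene, and ILMN_2698299. The representing probe was detected on 30 of 31 arrays and missed on XX male 7, which had its lowest signal of 5.16. The median was 8.07 and the highest value 9.92, again on XY male 5, a 27.1-fold range that was the widest of the 3 genes. Because XX male 7 was below detection, the low end of that range is uncertain.

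The XX females ran from 6.49 through a median of 8.39 to 9.25. In XX males the values were 5.16, 8.72 and 9.17, in XXY males 6.07, 7.14 and 8.88, and in XY males 6.09, 8.40 and 9.92. The groups overlapped here too. Means were 8.21 ± 0.96 (SD, n = 8) in XX females, 8.02 ± 1.48 (SD, n = 7) in XX males, 7.22 ± 1.12 (SD, n = 8) in XXY males and 8.25 ± 1.20 (SD, n = 8) in XY males. XXY males had the lowest mean, and the other 3 means differed from each other by less than the SD of any group.

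A gap from 6.55 to 7.40 in the batch-adjusted Gabrd signal separated 8 arrays from the other 23. Below it lay 1 of 8 XX females, 2 of 7 XX males, 4 of 8 XXY males and 1 of 8 XY males. Those arrays were XX female 4, XX males 5 and 7, XXY males 2, 3, 7 and 8, and XY male 1. Prkcd on them read 7.98 to 8.82 and Tcf7l2 8.55 to 9.87, so all 3 genes were in their low range there. The gap was noticed in the data and defines no group of the study.

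Tcf7l2, at chr19:55741797-55933659, was read by probe ILMN_2641647, which represents the gene, and by ILMN_3006739. The former was detected on 31 of 31 arrays and ran from 8.55 on XXY male 8 through a median of 10.71 to 11.82 on XY male 5, a 9.61-fold range. XY male 5 thus had the highest reading of each of the 3 genes.

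Lowest, median and highest Tcf7l2 signals were 9.64, 10.88 and 11.36 in XX females. They were 8.81, 10.71 and 11.30 in XX males, 8.55, 10.19 and 11.21 in XXY males, and 9.64, 10.70 and 11.82 in XY males. As with the other genes, no group stood clear of another. Means were 10.69 ± 0.59 (SD, n = 8), 10.36 ± 0.99 (SD, n = 7), 10.07 ± 0.94 (SD, n = 8) and 10.58 ± 0.79 (SD, n = 8) in the same order of groups. Differences between neighbours in the order of means were again smaller than 1 SD of either group.

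**Figure D1:**
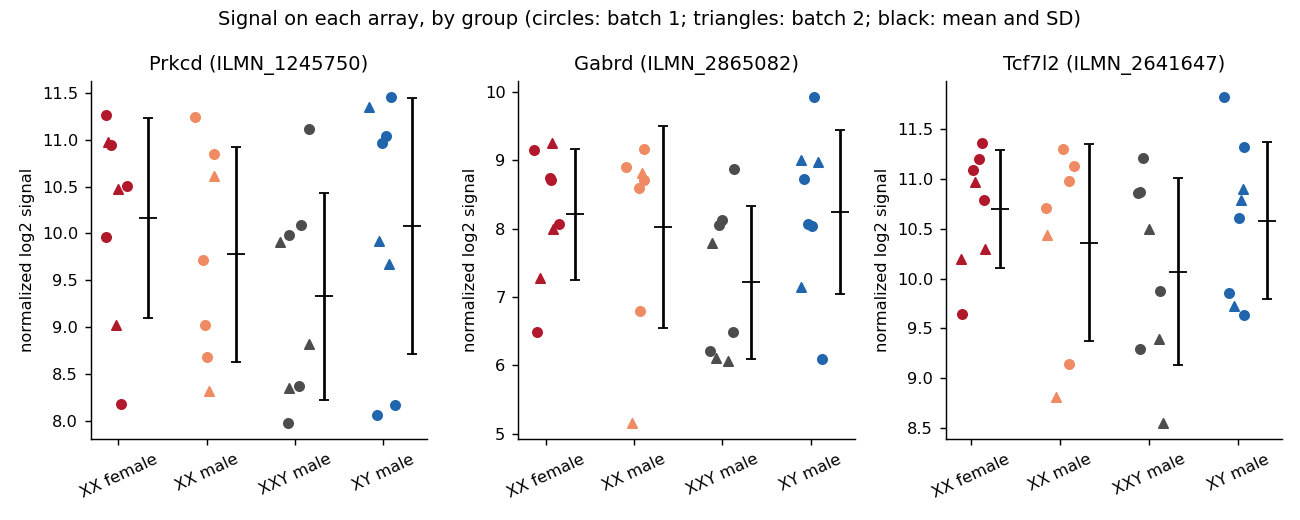
Normalized log2 signal of Prkcd, Gabrd and Tcf7l2 on each array (y axis) by group (x axis). Circles are batch 1 arrays, triangles are batch 2 arrays, and black marks give the mean and SD of each group (7 XX male arrays, 8 of each other group). In every panel the 4 groups overlap, and the XXY male mean is the lowest.

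The spread within groups was the leading feature of all 3 genes. After group and batch were removed, the residual SD was 1.20 for Prkcd, 1.19 for Gabrd and 0.79 for Tcf7l2 on the log2 scale, where the median over all 11712 features tested was 0.231. This placed them at the 99.6th, 99.5th and 98.7th percentile, with 50, 53 and 150 features more variable. Group accounted for 8.42% of the variance of Prkcd, 12.5% for Gabrd and 9.11% for Tcf7l2, and batch for 0.247%, 3.89% and 12%.

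The comparison of XXY with XY males asks what an added X chromosome does in males. Prkcd was 0.75 lower in XXY males, Gabrd 1.03 lower and Tcf7l2 0.51 lower on the log2 scale, with fit standard errors of 0.57, 0.56 and 0.38. In fold terms the XY mean was 1.68, 2.04 and 1.43 times the XXY mean. Over all features the median difference was 0.0029 and 48.7% were below 0. This contrast was known when the genes were picked, so no test is given. As background, 0.0512% of all features were called in this contrast at a limma adjusted p of 0.05, and calls are not read for the 3 genes. Within batch 1 the differences were -0.43, -0.62 and -0.23, and within batch 2 -1.28, -1.72 and -0.99, so the sign was the same in both batches and the size was larger in the batch with 3 arrays a group. With single arrays left out, Prkcd ranged from -1.05 (without XY male 1) to -0.54 (without XY male 6). The range was -1.37 (without XY male 1) to -0.81 (without XY male 5) for Gabrd and -0.68 (without XY male 1) to -0.34 (without XXY male 8) for Tcf7l2. In bulk tissue, fewer cells of a type and less RNA per cell cannot be told apart.

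XXY males against XX females share the XXY arrays with that contrast, so they are given beside it and do not add to it. Prkcd was 0.84 lower, Gabrd 1.00 lower and Tcf7l2 0.62 lower in XXY males. The adjusted p-values of limma were 0.942, 0.935 and 0.935, with 95% intervals of -2.00 to 0.32, -2.14 to 0.15 and -1.39 to 0.15, so none of the 3 passed the test. In this comparison 0.0512% of features were called. Within batch 1 the differences were -0.66, -0.68 and -0.39, and within batch 2 -1.13, -1.52 and -1.01.

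XXY males against XX males hold testes and 2 X chromosomes in common and differ by the Y chromosome. This comparison also shares the XXY arrays with the contrast known when the genes were picked, so it does not add to that contrast. The differences were -0.44 for Prkcd, -0.76 for Gabrd and -0.23 for Tcf7l2, with limma adjusted p-values of 0.887, 0.782 and 0.905. None of the 3 genes passed, against 0.0256% of all features. The 95% intervals were -1.64 to 0.76, -1.95 to 0.43 and -1.03 to 0.56. Within batch 1 they were -0.39, -0.89 and -0.23, and within batch 2, which had 2 XX males, -0.43, -0.33 and -0.14. Single arrays left out moved Prkcd between -0.70 (without XX male 7) and -0.20 (without XX male 2). Gabrd moved between -1.25 without XX male 7, the array on which its representing probe was not detected, and -0.54 without XX male 8. Tcf7l2 moved between -0.46 without XX male 5 and -0.07 without XXY male 8. The lowest adjusted p over these was 0.487.

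XX females against XX males compare gonadal sex on the same sex chromosomes. Prkcd was 0.40 higher in females, Gabrd 0.23 higher and Tcf7l2 0.39 higher, with limma adjusted p-values of 0.903, 0.945 and 0.844, and none passed where 0.0256% of features did. The 95% intervals were -0.80 to 1.60, -0.96 to 1.42 and -0.41 to 1.19. Within batch 1 the differences were 0.27, -0.20 and 0.17, and within batch 2 0.70, 1.19 and 0.87, so Gabrd did not have the same sign in both batches. Leaving out arrays in turn gave 0.14 (without XX male 7) to 0.71 (without XX female 4) for Prkcd and 0.16 (without XX male 5) to 0.58 (without XX female 4) for Tcf7l2. For Gabrd the estimate changed sign, to -0.25, without XX male 7, and was 0.52 without XX female 4.

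XX males against XY males compare sex chromosomes in males. This comparison shares the XY arrays with the contrast known when the genes were picked. The differences were -0.31, -0.27 and -0.28 for Prkcd, Gabrd and Tcf7l2, with limma adjusted p-values of 0.960, 0.967 and 0.945 and 95% intervals of -1.51 to 0.89, -1.46 to 0.93 and -1.08 to 0.52. Called features made up 0.0598% of the total and the 3 genes were not among them. Within batch 1 the differences were -0.03, 0.27 and 0.00, and within batch 2 -0.85, -1.39 and -0.85, so the lower XX male values were in batch 2, which had 2 XX males. Leaving out XY male 1 gave -0.62, -0.62 and -0.46. Prkcd was at -0.05 without XX male 7 and Tcf7l2 at -0.05 without XX male 5, and Gabrd changed sign, to 0.22, without XX male 7.

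XX females and XY males had the closest means. The labels mark Sry in these XY males and not in the XX females. The XY arrays are again shared with the contrast known when the genes were picked. The differences were 0.09 for Prkcd, -0.03 for Gabrd and 0.11 for Tcf7l2, and each limma adjusted p was 1.00. The share called was 0.0683% of features and 0 of the 3 genes. The 95% intervals of -1.07 to 1.25, -1.18 to 1.12 and -0.66 to 0.88 reach past a 2-fold difference in either direction for Prkcd and Gabrd. Within batch 1 the differences were 0.24, 0.07 and 0.17, and within batch 2 -0.15, -0.20 and 0.02. Each changed sign when some arrays were left out, with values of -0.21, -0.38 and -0.06 without XY male 1 and 0.39, 0.24 and 0.30 without XX female 4.

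**Figure D2:**
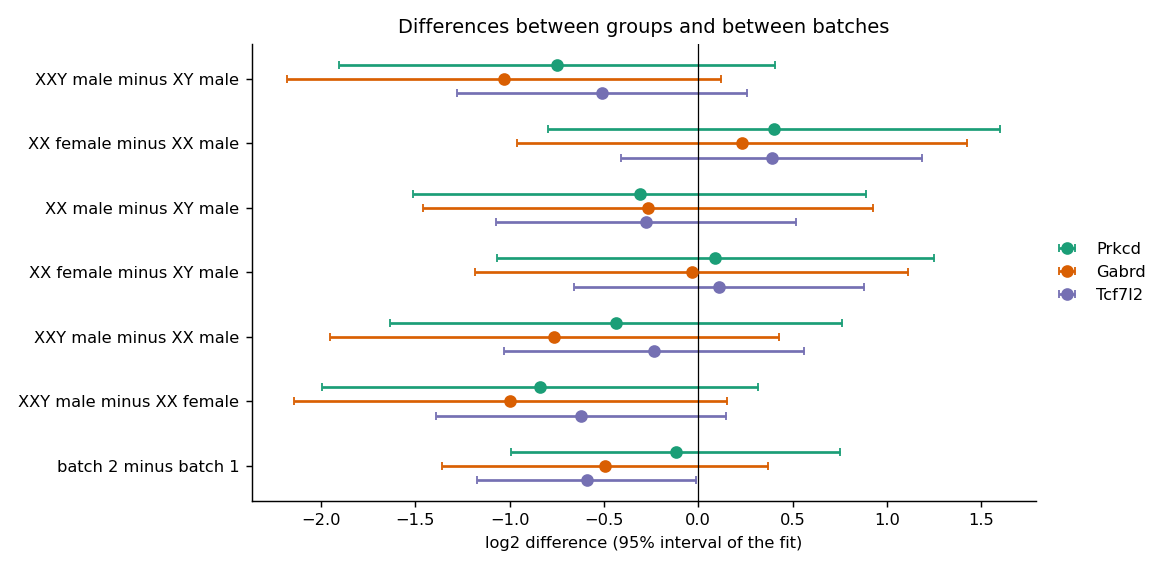
Log2 difference (x axis) of Prkcd, Gabrd and Tcf7l2 in the 6 comparisons of groups and between batches (y axis), with the 95% interval of the fit as a bar. All intervals between groups span 0, the batch interval of Tcf7l2 ends just below 0, and among the comparisons of groups the 2 lowest estimates of each gene are XXY males against XY males and against XX females.

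The batches differed on 44.7% of all features, 5238 of 11712, and none of the 3 genes was among these. Batch 2 minus batch 1 was -0.12 for Prkcd, -0.49 for Gabrd and -0.59 for Tcf7l2, with limma adjusted p-values of 0.845, 0.359 and 0.0891. At an unadjusted p under 0.05, Tcf7l2 alone of the 3 was below the threshold between batches (95% interval -1.17 to -0.01), and 0 of the 3 genes in the 5 tested comparisons of groups. The mean of the 20 batch 1 arrays was 9.88 ± 1.26 (SD) for Prkcd, 8.10 ± 1.10 for Gabrd and 10.64 ± 0.77 for Tcf7l2. The 11 batch 2 arrays gave 9.77 ± 1.04, 7.60 ± 1.38 and 10.05 ± 0.83. Low and high arrays were present in both batches.

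The further probes were set against the representing ones. The Gabrd probes followed each other across arrays with r = 0.971 (rho = 0.971, 31 arrays). ILMN_2698299 ran from 5.49 to 10.02 and was detected on 30 of 31 arrays, among them XX male 7 but not XXY male 2. It was 1.12 lower in XXY than in XY males, close to the representing probe. The Tcf7l2 probes followed each other less closely, with r = 0.667 (rho = 0.604). ILMN_3006739 was dim, between 4.70 and 7.78, and was detected on 27 of 31 arrays. It was 0.49 lower in XXY than in XY males. Its batch difference had the opposite sign to that of the representing probe, 0.56 (limma adjusted p = 0.0991). The probes disagree on Tcf7l2 between batches and have the same sign between groups.

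The 3 genes shared most of their variation across arrays. With the fitted batch difference removed, Pearson's r over 31 arrays was 0.808 for Prkcd and Gabrd (rho = 0.758), 0.862 for Prkcd and Tcf7l2 (rho = 0.785) and 0.882 for Gabrd and Tcf7l2 (rho = 0.831). Without the 2 arrays farthest from the median of the gene named earlier in each pair, r was 0.764, 0.834 and 0.864. These points share the array, its hybridisation and its normalization, and the correlations are descriptions. Within batch 1 r was 0.774, 0.861 and 0.848, and within batch 2 it was 0.916, 0.883 and 0.938.

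The size of r rests in part on the distance between the low arrays and the others. Among the 23 arrays above the gap in Gabrd, r was 0.443 for Prkcd and Gabrd, 0.668 for Prkcd and Tcf7l2 and 0.596 for Gabrd and Tcf7l2. Among the 8 arrays below it, r was 0.426, 0.187 and -0.027. The gap was set on Gabrd itself, which narrows its range on each side.

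**Figure D3:**
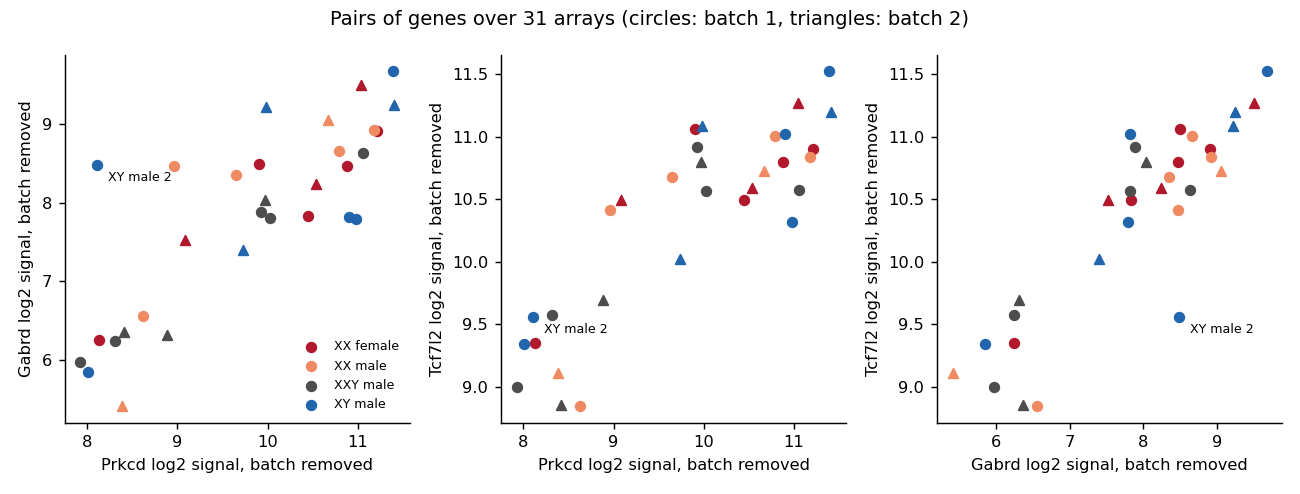
Batch-adjusted log2 signals of each pair of genes (both axes), with 1 point per array coloured by group. The points run along a rising band with r of 0.808, 0.862 and 0.882, and XY male 2 lies off the band in the panels with Gabrd.

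Each gene was also expressed in units of its own SD from its mean over arrays, after batch was removed. On 9 arrays all 3 genes were below their mean, on 14 all were above, and 8 arrays were divided. The median distance between the highest and lowest of the 3 genes on an array was 0.524 SD. XXY male 2 showed the closest match, at -1.63 for Prkcd, -1.59 for Gabrd and -1.72 for Tcf7l2.

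XY male 2 was the array on which the genes were farthest apart, by 2.00 SD. Prkcd was at -1.47 there and Tcf7l2 was also below its mean, while Gabrd was at 0.53. Its log2 signals there were 8.73 on ILMN_2865082 and 8.72 on ILMN_2698299, both above the median of the probe. Next came XX male 6, where Prkcd was at -0.74 and Gabrd at 0.53. Without XY male 2, r was 0.872 for Prkcd and Gabrd and 0.921 for Gabrd and Tcf7l2.

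On XY male 2 the mean deviation of 7 measured markers of striatal neurons was 1.83 on the log2 scale, where the other 7 XY males lay between -0.37 and -0.09. XX male 6 was at 0.88 on the striatal list and XX male 8, on which all 3 genes were above their mean, at 0.91. Across 31 arrays the distance of Gabrd above Prkcd had r = 0.634 (rho = 0.367) with the striatal list mean, and r = 0.163 (rho = 0.230) without XY male 2 and XX male 6. The part of striatal tissue in the Gabrd signal was not tested.

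**Figure D4:**
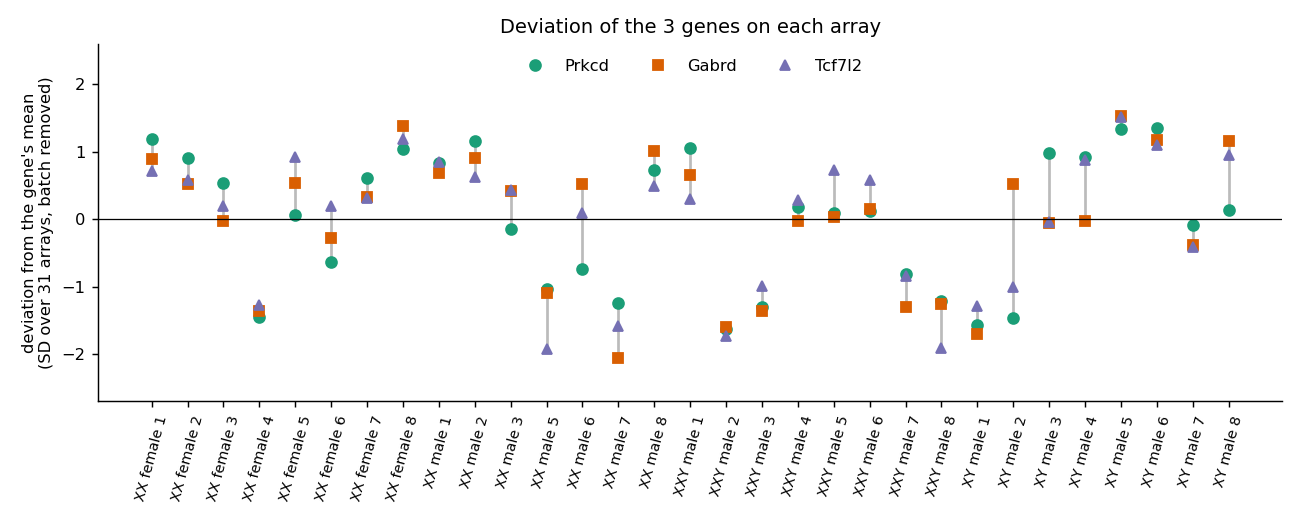
Deviation of Prkcd, Gabrd and Tcf7l2 from their means on each of the 31 arrays, in SD units of each gene with batch removed (y axis), with arrays on the x axis. The 3 points of an array mostly lie together, and the widest separation, 2.00 SD, is on XY male 2.

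The genes most like the members were found by correlating every other named gene with the mean of the 3 standardized signals over 31 arrays. Of 8970 genes, 53 had r of at least 0.8, which is 0.591%, and 13 had r of at least 0.9. The middle of all genes was near 0, with a median r of -0.021 and 5th and 95th percentiles of -0.41 and 0.42.

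Highest were Ramp3, a receptor activity-modifying protein, with r = 0.961, and Vav3 with r = 0.960. Ntng1, which encodes the axonal membrane protein netrin-G1, had r = 0.956, and the homeobox gene Shox2 had r = 0.946. Ramp3 ran from 6.20 to 10.58 on the log2 scale, a 20.8-fold range, and Shox2 from 5.01 to 10.25, a 38.0-fold range. These ranges were of the order of those of the members. Next were the calcium-binding proteins Cpne9 (r = 0.937) and Necab1 (r = 0.933), the calcium pump gene Atp2a1 (r = 0.930) and the neuropeptide gene Cck (r = 0.930). Nsmf, which links NMDA receptors to the nucleus, had r = 0.925, the protein kinase C eta gene Prkch 0.912, the Nogo receptor homologue Rtn4rl1 0.911 and the RNA-editing enzyme gene Adarb1 0.910.

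These genes differed in how far they moved. Adarb1 ranged over 1.73-fold and Nsmf over 2.55-fold, against 8.52-fold for Cck and 7.33-fold for Ntng1. All 12 had a lower mean in XXY than in XY males, by 0.19 for Adarb1 to 0.95 for Ramp3 on the log2 scale, a direction that their likeness to the members makes likely. When group differences were removed as well, 11 of the 12 were again among the 12 highest.

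At the other end were Tpbg, a membrane glycoprotein, with r = -0.835, the small heat shock protein gene Hspb8 with r = -0.749 and the endothelin receptor gene Ednrb with r = -0.736. Clic6, a chloride channel protein of the choroid plexus, had r = -0.732, the co-chaperone gene Bag3 -0.727 and the zinc transporter gene Slc39a11 -0.723. Just 8 genes had r of -0.7 or below, and the 6 named ranged over 1.49-fold (Bag3) to 3.08-fold (Hspb8).

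A list of thalamic neuron markers that leaves out the 3 members was read as a check of their label. Of 26 genes, 16 were measured. The median r with the members' mean was 0.839, and 10 of 16 had r of at least 0.8. Besides Ramp3, Vav3, Ntng1, Shox2 and Adarb1 these were Tnnt1, a troponin (0.891), Zmat4 (0.868), Gbx2, a homeobox gene of the developing thalamus (0.839), Slc17a6, the vesicular glutamate transporter of subcortical neurons (0.839), and Slitrk6, a neuronal membrane protein (0.825 with group also removed). Rora (0.793), Rgs16 (0.771), the T-type calcium channel gene Cacna1g (0.684), the calretinin gene Calb2 (0.675) and Foxp2 (0.371) followed lower down. Kcnab3 was the sole measured marker with a negative value, -0.307. The mean of the 16 markers had r = 0.971 with the mean of the members (rho = 0.937). The list was chosen with earlier results known, and it describes these arrays rather than testing the label.

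The thalamic list mean overlapped between groups in the same way. As a deviation from the mean of all arrays on the log2 scale it was 0.14 ± 0.46 (SD) in XX females, -0.01 ± 0.56 in XX males, -0.20 ± 0.50 in XXY males and 0.08 ± 0.58 in XY males. The lowest arrays were at -0.74, -0.83, -0.97 and -0.82 in these groups and the highest at 0.70, 0.56, 0.35 and 0.88. Of the 16 markers, 14 had a lower mean in XXY than in XY males, with a median difference of -0.19, and 16 had a lower mean in XXY males than in XX females, with a median of -0.21. Over all features the corresponding medians were 0.0029 and -0.0003, and 48.7% and 50.1% of features were below 0. The list mean followed the members with r = 0.971, and the members were chosen with the XXY minus XY contrast known. That likeness makes these directions likely, and the markers are not separate observations of them. By limma 0 of the 16 were called in any comparison of groups, and 2 had an unadjusted p under 0.05 in at least 1 of the 5 tested ones, where 19.3% of all features did.

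**Figure D5:**
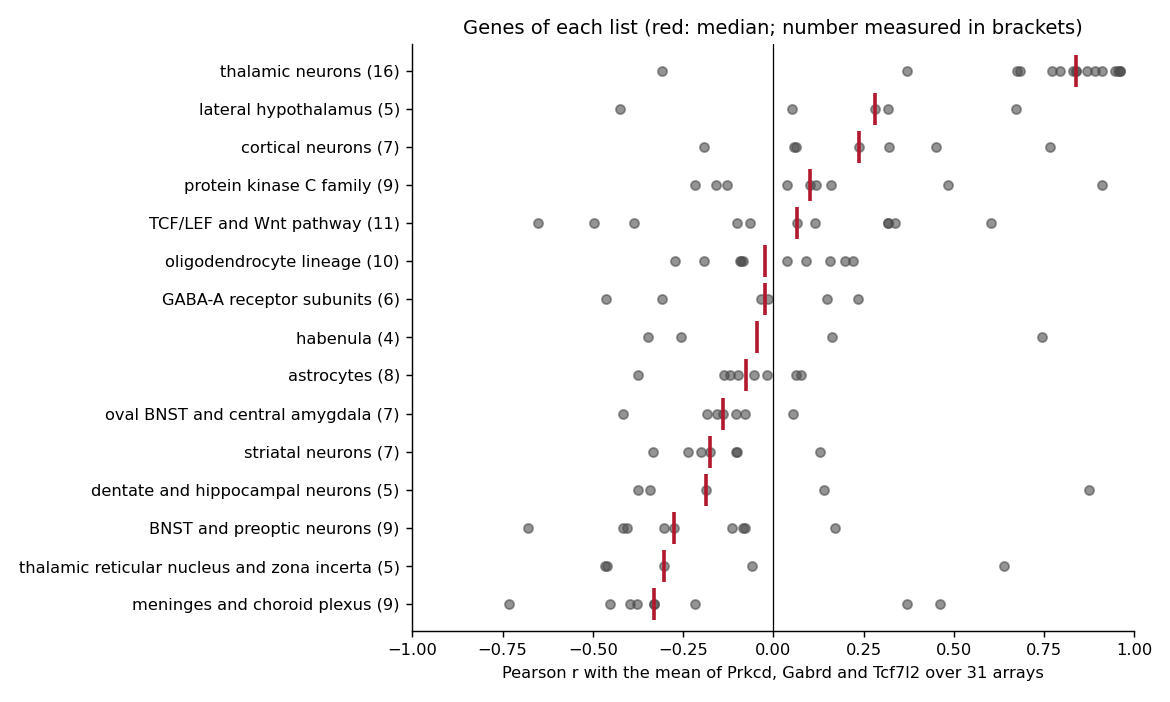
Pearson's r of each measured marker gene with the mean of Prkcd, Gabrd and Tcf7l2 over 31 arrays (x axis), 1 point per gene, by gene list (y axis), with the list median marked. Thalamic markers sit to the right with a median of 0.839, and most other lists are spread around 0.

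Markers of the other sources of these transcripts were read in the same way. Of 10 oval BNST and central amygdala markers, where Prkcd is also expressed, 7 were measured, with a median r of -0.140 and a range of -0.416 (Nts) to 0.055 (Ezr). Of 12 oligodendrocyte lineage markers, where Tcf7l2 is also expressed, 10 were measured, with a median of -0.023 and a highest value of 0.222 (Mobp). Of 10 dentate and hippocampal markers, where Gabrd is also expressed, 5 were measured, with a median of -0.188, but the homeobox gene Prox1 had r = 0.874. C1ql2, a dentate granule cell marker, had r = -0.374.

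The 7 of 10 striatal markers measured had a median r of -0.177, from -0.333 (Drd1) to 0.128 (Pde10a). Among 7 of 10 cortical markers the median was 0.236 and the lowest value -0.193. The vesicular glutamate transporter gene Slc17a7 reached 0.766 over a 24.8-fold range. Of the habenula list 4 of 8 were measured, with a median of -0.046. Gpr151, a receptor of habenular neurons, had r = 0.744, Kcnip1 0.163, Chrna3 -0.255 and Gng8 -0.346. Of the reticular nucleus and zona incerta list 5 of 7 were measured, with a median of -0.302, and the parvalbumin gene Pvalb had r = 0.638. In the lateral hypothalamus list, 5 of 6 were measured, the median was 0.281, Nptx2 had r = 0.673 and the lowest value was -0.424. The cortical list mean had r = 0.648 (rho = 0.755) with the members' mean, with Camk2a at 0.449. Ecel1 (-0.466) and Six3 (-0.461) of the reticular list were below the 5th percentile of all genes.

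Markers of the labelled tissue mostly had a negative r. Of 12 BNST and preoptic markers 9 were measured, 8 had a negative r with the members, and the median was -0.276. That median lies between the 5th and 95th percentiles of all genes, -0.41 and 0.42. The homeobox gene Lhx8 had r = -0.680, Nts -0.416, the secretory gene Sytl4 -0.406 and the estrogen receptor gene Esr1 -0.304. Only Greb1, an estrogen-responsive gene, had a positive value, 0.172. The list mean had r = -0.578 with the members' mean (rho = -0.556). By group it was -0.09 ± 0.21 (SD) in XX females, 0.03 ± 0.17 in XX males, 0.06 ± 0.23 in XXY males and 0.00 ± 0.11 in XY males. The part of the amount of BNST/POA tissue in the members' signals was not tested.

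Among non-neuronal markers, 8 of 8 astrocyte genes were measured with a median r of -0.075, from -0.374 (Gfap) to 0.076 (Slc1a2). Of 12 meninges and choroid plexus markers 9 were measured, with a median of -0.331. Clic6 was lowest, Lum followed at -0.452, and Otx2 (0.461) and Ttr (0.371) were the 2 positive ones. The members' mean had r = -0.138 with the number of probes detected and r = -0.034 with the median bead intensity of an array.

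The relatives of each member were then read. Of 16 GABA-A receptor genes besides Gabrd, 6 were measured, and none exceeded the 0.235 of Gphn, which encodes the scaffold protein gephyrin. Gabrb2 had r = 0.148, Gabra3 -0.014, Gabrb1 -0.034, Gabrg1 -0.310 and Gabre -0.464. With Gabrd alone, the r of these 6 genes ran from -0.627 (Gabre) to 0.169 (Gphn). By limma 0 of 6 were called in a comparison of groups, with 1 at an unadjusted p under 0.05 in at least 1 tested comparison, against 19.3% of all features.

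Of 11 protein kinase C and D genes besides Prkcd, 9 were measured. Prkch had r = 0.912 and Prkcz 0.485, and the other 7 lay between -0.217 (Prkd2) and 0.160 (Prkcq). Prkch ran from 4.97 to 7.81 and was 0.74 lower in XXY than in XY males, close to the difference of Prkcd. Protein kinase C eta and delta belong to the same class of calcium-independent kinases. By limma 0 of the 9 were called in a comparison of groups, and 2 were under an unadjusted p of 0.05 in at least 1 tested comparison, against 19.3% of all features.

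Of 20 genes of the TCF/LEF family and Wnt pathway 11 were measured, with a median r of 0.064. Axin2, a negative regulator that is itself induced by Wnt signalling, had the highest r, 0.603. Pygo2 (0.338), Lgr5 (0.317) and Ctnnb1, which encodes beta-catenin (0.317), came next. The corepressor gene Tle4 had r = -0.652 and the related transcription factor gene Tcf7l1 -0.497. Tle1, another corepressor gene, was at 0.115. Dkk3 had r = -0.387, and Apc, Sfrp1 and Gsk3b lay between -0.102 and 0.064. By limma 0 of the 11 were called in a comparison of groups, with 3 under an unadjusted p of 0.05 in at least 1 tested comparison, against 19.3% of all features. In XX males 10 of 11 had a lower mean than in XY males, with a median difference of -0.07, where 46.9% of all features were below 0 and their median was 0.0085. By the count of genes below 0 this was the most uneven of the 6 comparisons. Against XY males, 8 of 11 were lower in XX females and 7 of 11 in XXY males. In each comparison without XY males, 4 of 11 were below 0. Over the 6 comparisons 46.9% to 52.1% of all features were below 0. The list mean was 0.06 ± 0.06 (SD) in XY males, -0.004 ± 0.07 in XX males, -0.004 ± 0.12 in XXY males and -0.05 ± 0.06 in XX females. The genes were read on the same arrays and are not separate observations of these directions.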

How the data were processed

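The deposited scanner table holds mean bead intensity per probe on a linear scale, a detection p-value, a bead standard error in intensity units and a bead number (a count of beads), per the file headers. The authors' processed table holds log2 values, a scale found by setting it against the scanner table, and its scaling is not given in the sources used here. The submitters' processing notes name limma.

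The neqc function (limma version 3.58.1, under R version 4.3.3) was applied to the intensities, with background from the detection p-values, an offset of 16, quantile normalization and log2. Probes detected (p under 0.05) on at least 7 arrays were kept, 14989 in all, with the probe of highest mean for each gene, giving 11712 tests. Symbols came from the platform annotation, updated through a RefSeq table of GRCm38.p6 (12250 probes with 1 symbol, 5 updated, 1 unmatched). A limma fit with group and batch over 31 arrays gave 6 group contrasts and the batch contrast, two-sided, with Benjamini-Hochberg adjustment over all tests. It was tested on simulated data. Levels are not compared between probes. The number of arrays limits the precision.

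The members and the 15 gene lists were chosen with earlier results of these data known. The genes named were taken from the members, the 12 of highest and 6 of lowest r with their mean, the 2 of highest and 2 of lowest r in each list, and the measured genes of the thalamic, GABA-A, protein kinase C and Wnt lists. Not all of these are named for each list. Esr1 and Sytl4 were named after their values were seen. No sample column was left unused.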

Additional observations from a re-analysis of the deposited data

How the results depend on the processing

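Of 735 tested values over all alternatives, 2 passed an adjusted p of 0.05, both for Tcf7l2 between batches, whose difference was -0.68 to -0.45 with arrays left out in turn and whose lowest limma adjusted p was 0.0478. For comparisons of groups the lowest was 0.487. The batch difference turned to 0.221 for Prkcd in the submitters' processed values and to 0.563 for Tcf7l2 on its other probe, and the cause was not tested. Leaving out arrays in turn gave differences that changed sign: Prkcd ran from -0.21 to 0.39 for XX females minus XY males and from -0.26 to 0.0573 between batches. Gabrd ran from -0.25 to 0.52 for XX females minus XX males, from -0.62 to 0.22 for XX males minus XY males and from -0.38 to 0.24 for XX females minus XY males. Tcf7l2 ran from -0.0595 to 0.30 for XX females minus XY males. The other differences between groups kept their sign, and several moved by over 1.5 times, to the values given with each comparison. With arrays left out, the XXY minus XY difference was -1.05 to -0.54 for Prkcd, -1.37 to -0.81 for Gabrd and -0.68 to -0.34 for Tcf7l2. Over the other alternatives it was -0.75 to -0.66, -1.12 to -0.65 and -0.52 to -0.41. XXY and XY males have the same number of arrays in each batch. On the same normalized values, alternatives that only change the batch of an XX male array, or leave it out, could not change this difference. Those alternatives are no check of it, and they narrow the range.

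With arrays left out in turn, r of Prkcd and Gabrd was 0.789 to 0.872. In batch 2 r was 0.916 for Prkcd and Gabrd and 0.938 for Gabrd and Tcf7l2. On either side of the gap in Gabrd, an alternative added after seeing the data, r was 0.426 and 0.443 for Prkcd and Gabrd, 0.187 and 0.668 for Prkcd and Tcf7l2, and -0.027 and 0.596 for Gabrd and Tcf7l2. The count of genes with r of at least 0.8 was 50 with group removed and 59 in the processed values, against 53.

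The titles give the groups the same replicate numbers. Over 45 pairs of arrays with the same number, the correlation of deviations from the group means ran from -0.241 to 0.308, and 14 exceeded 0.1. The median was 0.037, against -0.006 for other pairs. Of 31 arrays, 7 were closest to an array of their own number, and the count due by chance was not worked out. The numbers were not taken to pair arrays, a choice that these values do not settle. With the replicate number as a block in place of batch, the XXY minus XY difference was -0.75 for Prkcd, -1.03 for Gabrd and -0.51 for Tcf7l2. XXY and XY males hold the same replicate numbers, so this block could not change the estimates and is no check of them. No tested comparison of groups passed with this block. The filter that asks for detection on all 31 arrays gives no value for Gabrd. XX male 6 counted in batch 2 or left out changed no sign and no call. XX females, XXY males and XY males have the same number of arrays in each batch. On the same normalized values, neither choice could change the differences among these groups, so neither is a check of them. The representing Gabrd probe was undetected on XX male 7 and ILMN_2698299 on XXY male 2, so low Gabrd values are limited by signal over background.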
